A study of Mus musculus with 8 samples.

Results

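The genes described here encode the subunits, activators and assembly factors of the mouse proteasome, taken from an array study of cultured macrophages as every gene whose symbol begins with Psma, Psmb, Psmc, Psmd, Psme, Psmf or Psmg. The array listed 86 such probes for 49 genes among its 45281 probes. A probe was kept when its detection p-value was under 0.05 on at least 2 of the 8 arrays, which left 69 probes and 42 genes among 12793 genes and unnamed probes tested. Of these 42, 5 form the interferon-inducible set (Psmb8, Psmb9, Psmb10, Psme1 and Psme2), 35 are other subunits and regulators, and 2 carry the prefix only because their products bind a proteasome protein. The other 7 genes, Psma1, Psma3, Psma6, Psmb11, Psmc6, Psmd3 and Psmg4, had no probe above background on any array, so nothing is said of their expression. Psmf1, which encodes an inhibitor, had no probe under its symbol in the probe annotation used here, so it was not analysed.

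All samples were macrophages grown from C57BL/6 bone marrow for 7 days with M-CSF, the macrophage growth factor. They were treated for 24 h with both all-trans retinoic acid (ATRA, 1 µM) and omentum culture supernatant (ATRA+OMsup), with ATRA, with omentum culture supernatant (OMsup), or left untreated, with 2 arrays in each group. ATRA is made from vitamin A and acts through nuclear receptors, and the omentum is a fatty fold of the abdominal lining. The labels do not say whether the replicates were separate cultures or mice, so p-values measure the spread between these arrays, which may be technical, and they do not say whether the untreated cells also stood in serum-free medium. Levels are normalised log2 intensities, on which a difference of 1 is a 2-fold change.

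The arrays were of similar quality. Between 16116 and 16784 probes were above background on each array, and replicate arrays correlated at 0.993 to 0.995 across all 45281 probes. All 8 macrophage markers with a probe passed the detection filter, and no T and NK cell or mesothelial marker did. The B cell marker Cd79b was detected on all 8 arrays, and 3 dendritic cell, 1 adipocyte and 2 fibroblast markers passed on 2 or 3 arrays each, near background. The summed intensity of 6 granulocyte markers was 1319 to 1566 with ATRA+OMsup, 835.8 to 949.6 with ATRA, 1739 to 2098 with OMsup and 1324 to 1738 in untreated cells. S100a8 is the brightest of the 6, and they did not move together: with OMsup against untreated cells Mpo rose by 0.89 on the log2 scale (limma adjusted p = 0.011), while Ltf fell by 1.09 (limma adjusted p = 0.0161). The part of these markers in the results below was not tested. Fewer cells of a type and less RNA per cell cannot be told apart in such samples.

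The proteasome is the cell's main protease for proteins tagged with ubiquitin. Its barrel, the 20S core, is built from rings of alpha and beta subunits, and the 19S cap of ATPase and non-ATPase subunits recognises, unfolds and feeds in the substrate. Interferon induces 3 beta subunits that replace the constitutive catalytic ones, together with the PA28 activator subunits Psme1 and Psme2, and this immunoproteasome cuts peptides that suit presentation on MHC class I. In macrophages this links interferon state to antigen presentation.

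Proteasome genes varied little over the 8 arrays. The distance between the highest and the lowest of the 8 arrays had a median of 0.46 on the log2 scale (1.37-fold) over the 42 genes, against 0.61 (1.52-fold) over all features tested. Most of the genes are bright, and bright probes vary less. Among the 3199 brightest features the medians were 0.42 for the 29 proteasome genes there and 0.56 for all. The median was 0.50 in the inducible set and 0.44 in the other subunits and regulators.

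Few of the genes passed the test, which was limma's moderated test with p-values adjusted by Benjamini and Hochberg's method over all features. With ATRA+OMsup against untreated cells, 1 of 42 rose and 2 fell, while 15.1% of all features were called. With ATRA against untreated cells none of the 42 was called, against 4.06% of all features, and with OMsup against untreated cells none was called, against 9.36%. With ATRA+OMsup against ATRA 2 fell, against 10.4% of features called, and with ATRA+OMsup against OMsup none was called, against 4.49%. The interaction, which asks whether the effect of ATRA differs with and without OMsup, called none of the 42 and 0.242% of features.

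At an unadjusted limma p under 0.05 the counts were 8 of 42 with ATRA+OMsup against untreated cells (27.1% of all features), 2 with ATRA (13.7%) and 5 with OMsup (20.6%). They were 6 with ATRA+OMsup against ATRA (21.5%), 4 with ATRA+OMsup against OMsup (13.5%) and 1 for the interaction (5.24%). The shares of proteasome genes were below those of all features in each of the 6 comparisons, a difference that was not tested. The comparisons against untreated cells share the untreated arrays.

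The differences were also bounded. The 95% interval of the log2 difference lay wholly within -1 and 1 for 41 of 42 genes with ATRA+OMsup against untreated cells (84.9% of all features), for 42 with ATRA (93.2%) and for 41 with OMsup (88.9%). It did so for 41 genes with ATRA+OMsup against ATRA (88.8%) and for 42 with ATRA+OMsup against OMsup (93.1%). For the interaction it did so for 36 of 42 genes, or 85.7%, about the share of all features (85.9%). Psme3 was the exception with ATRA+OMsup and with OMsup against untreated cells, and Psmc3ip with ATRA+OMsup against ATRA. These bounds are on normalised intensities: for genes near background, such as Psma8 and Psmd6, the offset of 16 added to every intensity shrinks differences, and a larger change in expression could lie behind them. The median absolute log2 difference of the 42 genes was 0.16 with ATRA+OMsup, 0.07 with ATRA and 0.17 with OMsup against untreated cells, where all features had 0.21, 0.15 and 0.18.

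**Figure D1:**
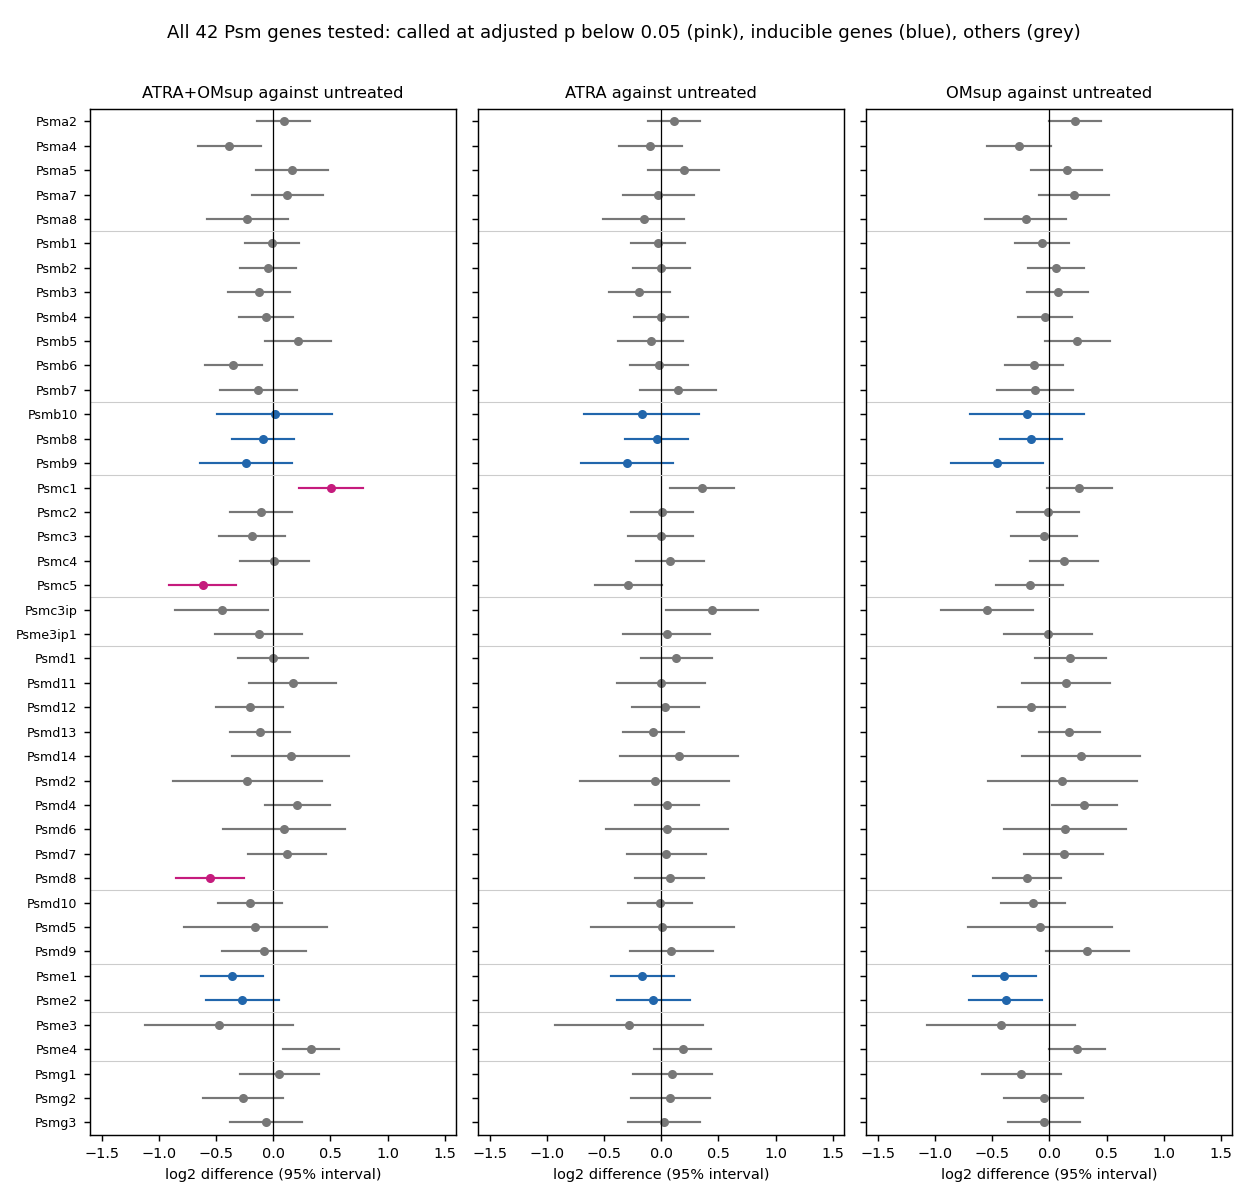
Log2 difference from untreated cells for each of the 42 genes (rows, grouped by role, roles parted by lines) with ATRA+OMsup, ATRA and OMsup; points are differences of group means of 2 arrays and bars are 95% intervals. Pink marks the 3 genes called with ATRA+OMsup (Psmc1, Psmc5 and Psmd8), blue the 5 inducible genes, whose points are all left of 0 with OMsup.

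**Figure D2:**
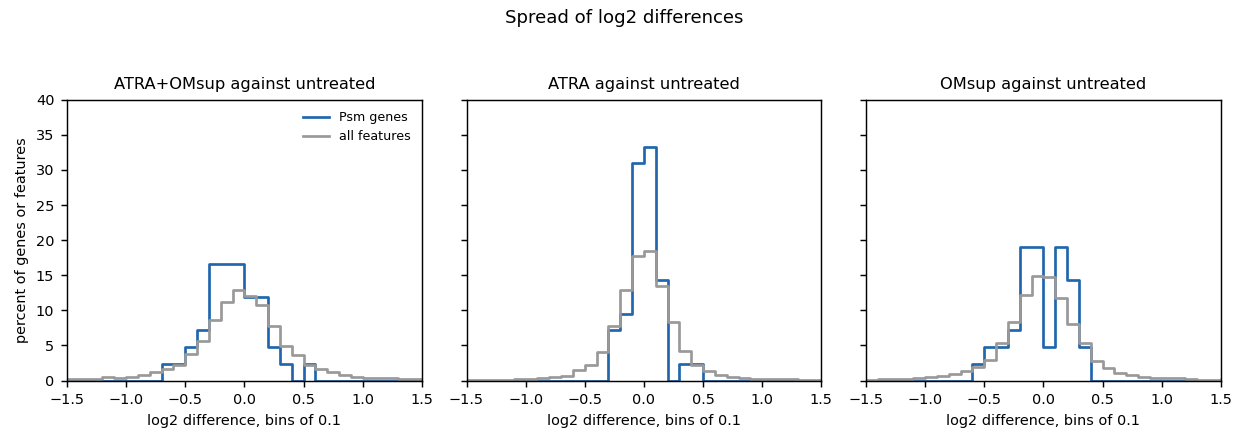
Share of the 42 proteasome genes (blue) and of all 12793 features (grey) in bins of 0.1 of the log2 difference from untreated cells, drawn between -1.5 and 1.5. The proteasome genes lie in the middle of each distribution, with none beyond -0.62 or 0.50 with ATRA+OMsup.

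The inducible set read lower with OMsup than in untreated cells for each of its 5 genes, by 0.16 to 0.46 on the log2 scale, but none passed the test. The median difference was -0.38, against -0.0039 over all features. An unadjusted limma p under 0.05 was found for 3 of the 5 genes, against 20.6% of all features. Both OMsup arrays lay below both untreated arrays for 4 of the 5, as they did for 24.7% of all features. The 5 genes were set apart with earlier results known, and their count is no independent evidence of a direction.

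Psme1, the alpha subunit of the PA28 activator, read 11.20 and 11.09 with OMsup against 11.57 and 11.51 in untreated cells. The arrays of the 2 groups did not overlap. The log2 difference was -0.39 ± 0.12 (SE, n = 2 each; limma adjusted p = 0.0819), with a 95% interval of -0.67 to -0.12. A second Psme1 probe differed by -0.39 as well (adjusted p = 0.158 in limma with every probe tested singly). Psme1 was also lower with ATRA+OMsup, at 11.27 and 11.09, by -0.36 ± 0.12 (limma adjusted p = 0.0808), and with ATRA it read 11.49 and 11.26, by -0.16 (limma adjusted p = 0.677).

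Psme2, the beta subunit of the same ring, read 8.07 and 8.18 with OMsup against 8.44 and 8.57 in untreated cells, again without overlap. Its difference was -0.38 ± 0.14 (SE, n = 2 each; limma adjusted p = 0.151), with an interval of -0.70 to -0.06. It read 8.14 and 8.33 with ATRA+OMsup, a difference of -0.27 (limma adjusted p = 0.268), and 8.44 and 8.43 with ATRA, a difference of -0.07 (limma adjusted p = 0.924). The ATRA difference was smaller than the gap between the 2 untreated arrays.

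Psmb9, which takes the place of the caspase-like subunit Psmb6 in the core, read 9.39 and 9.40 with OMsup against 10.04 and 9.66 in untreated cells. The OMsup arrays nearly coincided and the untreated arrays lay apart. The difference of -0.46 ± 0.18 (SE, n = 2 each) was the largest of the set and had a limma adjusted p = 0.18 and an interval of -0.86 to -0.05. Psmb9 read 9.86 and 9.36 with ATRA+OMsup and 9.63 and 9.48 with ATRA, so that the arrays with both treatments spanned most of the range of the other groups.

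Psmb8, which replaces the chymotrypsin-like subunit Psmb5, varied least in the set on the brightest probes. It read 11.57 and 11.34 with ATRA+OMsup, 11.40 and 11.61 with ATRA, 11.37 and 11.40 with OMsup and 11.52 and 11.57 in untreated cells. The difference with OMsup was -0.16 (limma adjusted p = 0.525), with an interval of -0.43 to 0.11, and those with ATRA+OMsup (-0.09) and ATRA (-0.04) were smaller than the spread of the treated arrays. A second, dimmer Psmb8 probe read 7.79 and 8.06 with ATRA against 8.19 and 8.26 in untreated cells, a difference of -0.30 (limma adjusted p = 0.536 with every probe tested singly), and differed by -0.11 with ATRA+OMsup and by -0.19 with OMsup.

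Psmb10, which replaces the trypsin-like subunit Psmb7, depended on the probe. Its brightest probe read 10.89 and 11.44 with ATRA+OMsup, 10.83 and 11.13 with ATRA, 10.62 and 11.30 with OMsup and 11.12 and 11.19 in untreated cells, so the treated arrays straddled the untreated ones with ATRA+OMsup and with OMsup. Its other detected probe read 10.63 and 10.52 with ATRA+OMsup, 10.53 and 10.70 with ATRA, 10.50 and 10.60 with OMsup and 10.89 and 11.07 in untreated cells. On that probe all 6 treated arrays lay below both untreated arrays, by -0.40, -0.36 and -0.43 for the group means (limma adjusted p = 0.0624, 0.211 and 0.07 with every probe tested singly).

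With ATRA alone the set's median difference was -0.16, with 3 of 5 genes wholly below untreated cells against 20.9% of all features. With ATRA+OMsup it was -0.24, with 2 of 5 genes wholly below against 26.7% of features. With ATRA+OMsup against OMsup the differences were 0.03 to 0.22, and the interaction terms were 0.11 to 0.51. None of these passed the test, and both reuse the OMsup arrays on which the set read low, so their signs are no separate evidence. The largest interaction was that of Psmb9, 0.51 ± 0.26 (limma adjusted p = 1), with an interval of -0.06 to 1.08, so a sizeable interaction in this gene is not bounded by these arrays.

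**Figure D3:**
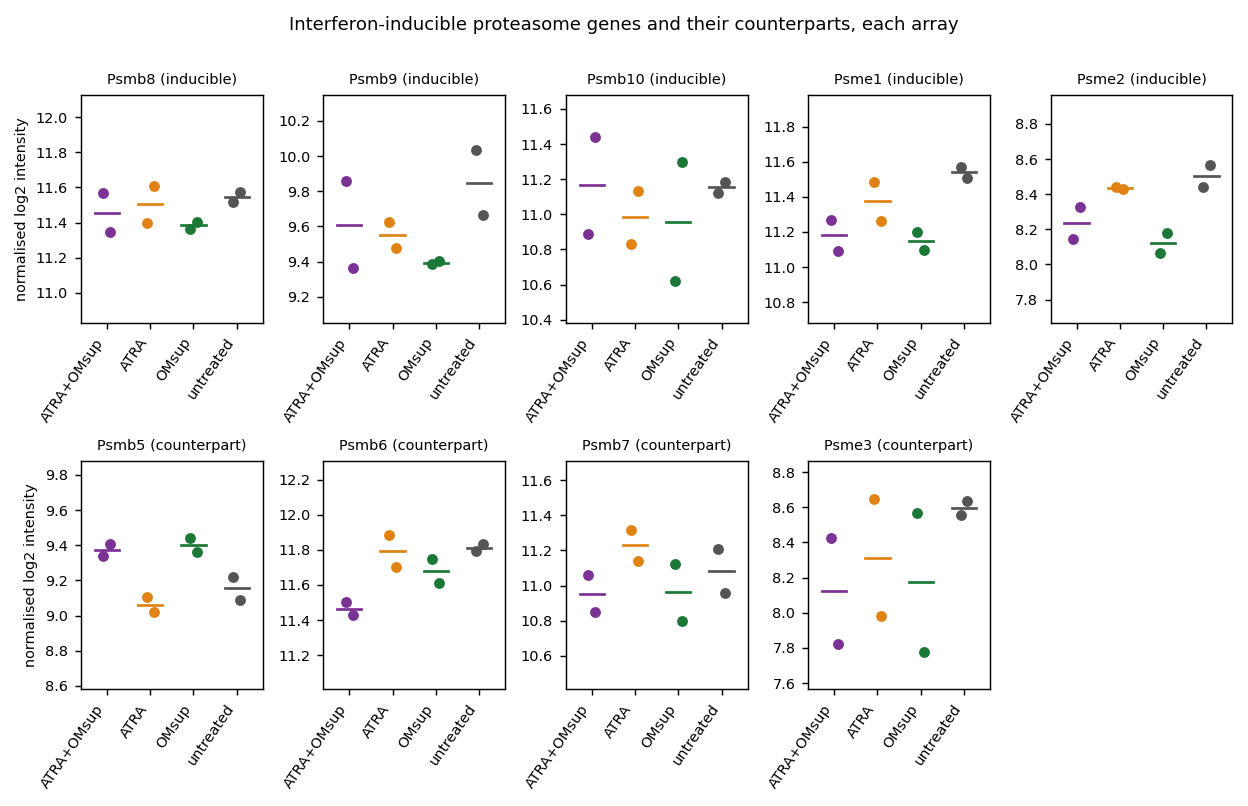
Normalised log2 intensity of the 5 inducible genes (top) and of Psmb5, Psmb6, Psmb7 and Psme3 (bottom) on each array; dots are arrays, lines are means of 2 arrays, and each panel spans 1.3 log2 units around its own centre. The OMsup dots of Psmb8, Psmb9, Psme1 and Psme2 lie below both untreated dots, and those of Psmb10 lie on either side of them.

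RefSeq promoter windows (GRCm38.p6, 250 bases before to 50 after the start) were found for 35 of the 42 genes. Psma8, Psmb1, Psmb2, Psmb7, Psmc3, Psmd7 and Psmg2 had none. All 5 inducible genes read lower on average with OMsup than in untreated cells, though none passed the test. The stretches of those with a match are shown. Each is written from 5′ to 3′ on the gene's own strand, with the match in capitals. Psmb8 (chr17:34197945-34198194, plus strand) shows the interferon-gamma activated site TTCNNNGAA, whose first base lies 97 bases before the start. Psmb9 (chr17:34187331-34187555, minus strand) shows the whole interval of 225 bases up to the start of Tap1, the peptide transporter gene on the opposite strand, with the NF-Y box CCAAT in its reverse form from 8 bases before the start. Psme1 (chr14:55578496-55578520, plus strand) shows the interferon-stimulated response element core GAAANNGAA in reverse form, from base 11 after the start.
Psmb8: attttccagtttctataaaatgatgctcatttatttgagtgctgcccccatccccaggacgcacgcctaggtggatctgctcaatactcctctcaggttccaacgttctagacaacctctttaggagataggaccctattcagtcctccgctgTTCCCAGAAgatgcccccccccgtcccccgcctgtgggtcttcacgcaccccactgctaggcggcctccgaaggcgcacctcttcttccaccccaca
Psmb9: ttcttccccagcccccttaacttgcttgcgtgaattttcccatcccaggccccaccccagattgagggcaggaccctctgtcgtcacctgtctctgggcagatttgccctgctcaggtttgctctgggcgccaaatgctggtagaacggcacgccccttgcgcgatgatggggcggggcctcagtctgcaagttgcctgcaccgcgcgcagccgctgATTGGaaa
Psme1: gctgtgctTTCGCTTTCccttcccg

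Searched on both strands, the interferon-stimulated core was found in 1 of 5 inducible genes, in 5 of 28 other subunits and regulators and in 9.76% of the 27025 genes with a window. The activated site was found in 1 of 5 (Psmb8), in 2 of 28 and in 9.55% of all genes. The NF-Y box was found in 1 of 5 (Psmb9), in 9 of 28 and in 41.1% of all genes. Psmb10 and Psme2 matched none of the motifs searched. A match is a description of these letters, and binding was not measured. Tap1, which starts across from Psmb9, read 6.71 and 6.47 with OMsup against 7.03 and 7.07 in untreated cells, a difference of -0.46 (limma adjusted p = 0.254).

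The constitutive counterparts did not share one direction. Psmb5 read 9.44 and 9.36 with OMsup against 9.22 and 9.09 in untreated cells, a difference of 0.24 (limma adjusted p = 0.33; interval -0.04 to 0.53), and with ATRA+OMsup it read 9.34 and 9.41, a difference of 0.22 (limma adjusted p = 0.327). Both groups with supernatant lay above untreated cells and above ATRA, at 9.10 and 9.02. Psmb7 read 11.06 and 10.85 with ATRA+OMsup, 11.32 and 11.14 with ATRA, 11.12 and 10.80 with OMsup and 11.21 and 10.96 in untreated cells, and on this probe, the brightest of 4, the treated arrays overlapped the untreated ones in every group. On the other 3 probes both ATRA+OMsup arrays lay below both untreated arrays, by -0.24 to -0.36, and on 2 of them so did both OMsup arrays, but none passed when every probe was tested singly (limma adjusted p = 0.211 to 0.261 with ATRA+OMsup). Side by side with OMsup, the inducible and constitutive members of a pair were set against untreated cells on their brightest probes. They differed by -0.16 and 0.24 (Psmb8 and Psmb5), by -0.46 and -0.13 (Psmb9 and Psmb6) and by -0.19 and -0.12 (Psmb10 and Psmb7). Other detected probes differed by -0.19 (Psmb8), -0.31 (Psmb6), -0.43 (Psmb10) and -0.14 to -0.28 (Psmb7), so the gap within a pair changed with the probe. The difference within each pair was not tested.

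Psmb6 read lower with ATRA+OMsup, and whether it passed depended on the probe. The brightest probe read 11.50 and 11.43 with ATRA+OMsup, 11.88 and 11.70 with ATRA, 11.75 and 11.61 with OMsup and 11.79 and 11.83 in untreated cells. The ATRA+OMsup arrays were the lowest 2 of the 8. The difference from untreated cells was -0.35 ± 0.11 (SE, n = 2 each; limma adjusted p = 0.0658). The other detected probe read 11.03 and 10.87 with ATRA+OMsup against 11.40 and 11.51 in untreated cells, a difference of -0.51 that passed when every probe was tested singly (limma adjusted p = 0.0176). Psmb6 also holds the antioxidant response element TGACNNNGC, the sequence bound by NRF1 and NRF2 (chr11:70525340-70525364, plus strand). Its first base lies 9 bases before the start on which the promoter window is set, and RefSeq's gene record begins 33 bases upstream of that start. The stretch is shown because Psmb6 is the core subunit with a probe that passed.
Psmb6: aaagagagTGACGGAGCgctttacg

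That motif was found in 5 of 28 other subunits and regulators (Psmb5, Psmb6, Psmd12, Psmd9 and Psme4), in none of the 5 inducible genes, and in 14% of all genes. With ATRA+OMsup Psmb5 read higher than in untreated cells (0.22) and Psmb6 lower on both probes. The sign turned with the probe for Psmd9 (-0.08 and 0.30), Psmd12 (-0.20 and 0.58) and Psme4 (0.33 and -0.20), the brighter probe given first.

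None of the 5 alpha subunits tested, which form the gate of the core, passed in any comparison. Psma4 read 11.10 and 11.03 with ATRA+OMsup against 11.43 and 11.47 in untreated cells, without overlap, by -0.38 ± 0.12 (limma adjusted p = 0.0653). With OMsup it read 11.28 and 11.09, by -0.26 (limma adjusted p = 0.267). Psma2 read higher with OMsup, at 12.61 and 12.58 against 12.47 and 12.28 in untreated cells, by 0.22 (limma adjusted p = 0.26). Psma8, the testis form of an alpha subunit, was detected on 5 of 8 arrays and read 4.37 to 4.83 throughout. Among the 7 constitutive beta subunits, Psmb1 was the flattest, with a range of 0.15 (1.11-fold) over the 8 arrays, and Psmb2 and Psmb4 each had 0.21.

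Of the 5 ATPase subunits tested, which form the motor ring of the cap, 1 rose and 1 fell with ATRA+OMsup, where 15.1% of all features were called. Psmc1 read 9.69 and 9.79 with ATRA+OMsup, 9.66 and 9.53 with ATRA, 9.49 and 9.51 with OMsup and 9.29 and 9.19 in untreated cells. Every treated array lay above both untreated arrays. With ATRA+OMsup it rose by 0.50 ± 0.13 (SE, n = 2 each; limma adjusted p = 0.021; interval 0.22 to 0.78). With ATRA the difference was 0.36 (limma adjusted p = 0.203) and with OMsup 0.26 (limma adjusted p = 0.277). The Psmc1 call was lost when the background-corrected arrays were scaled to a common median (0.47, limma adjusted p = 0.0739). It was also lost without untreated replicate 1 (limma adjusted p = 0.0633), untreated replicate 2 (limma adjusted p = 0.147) or ATRA+OMsup replicate 2 (limma adjusted p = 0.0913).

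Psmc5, another subunit of the ring, read 8.97 and 9.07 with ATRA+OMsup, 9.26 and 9.43 with ATRA, 9.44 and 9.48 with OMsup and 9.71 and 9.56 in untreated cells. The ATRA+OMsup arrays were the lowest of all and the untreated arrays the highest. On this probe it fell by 0.62 ± 0.13 (SE, n = 2 each; limma adjusted p = 0.0091; interval -0.91 to -0.32). The other Psmc5 probe, detected on all 8 arrays at a similar intensity, read 9.02 and 9.48 with ATRA+OMsup against 9.30 and 9.22 in untreated cells, a difference of -0.01 (limma adjusted p = 0.987 with every probe tested singly). The call thus rests on 1 of 2 probes, and without untreated replicate 1 it was lost on that probe too (-0.54, limma adjusted p = 0.0776). On their brightest probes Psmc2, Psmc3 and Psmc4 differed from untreated cells by at most 0.19 in any treatment, and none passed. A dim Psmc2 probe, detected on all 8 arrays, differed by -0.32 with ATRA+OMsup, -0.23 with ATRA and 0.12 with OMsup. It did not pass either (limma adjusted p = 0.388, 0.791 and 0.838 with every probe tested singly).

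Psmd8, a subunit of the lid of the cap, was the only gene called in 2 comparisons, both on its only detected probe. It read 10.81 and 10.99 with ATRA+OMsup, 11.42 and 11.63 with ATRA, 11.15 and 11.36 with OMsup and 11.36 and 11.54 in untreated cells. The ATRA+OMsup arrays lay below the other 6. Against untreated cells it fell by 0.55 ± 0.13 (SE, n = 2 each; limma adjusted p = 0.0176; interval -0.85 to -0.25), and against ATRA it fell by 0.62 ± 0.13 (limma adjusted p = 0.0121; interval -0.92 to -0.33). Against OMsup the difference was -0.35 (limma adjusted p = 0.242). The interaction of -0.43 had the only unadjusted p under 0.05 among the 42 genes, 0.0471, and a limma adjusted p = 0.93. The call against untreated cells was lost without untreated replicate 2 (-0.46, limma adjusted p = 0.154) or ATRA+OMsup replicate 1 (-0.46, adjusted p = 0.0823). The call against ATRA was lost without ATRA replicate 2 (-0.51, limma adjusted p = 0.143) or ATRA+OMsup replicate 1 (-0.53, adjusted p = 0.0676).

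The other 9 non-ATPase subunits tested passed in no comparison. Psmd4, a receptor for ubiquitin chains, read 11.78 and 12.02 with OMsup against 11.64 and 11.54 in untreated cells, by 0.31 (limma adjusted p = 0.202; interval 0.02 to 0.59). Psmd14, the enzyme of the lid that removes ubiquitin from substrates, read 7.81 and 7.85 with OMsup against 7.96 and 7.15 in untreated cells, and the spread of the untreated arrays was larger than the difference of 0.28. Psmd12, a lid subunit, differed with ATRA+OMsup by -0.20 on its bright probe and by 0.58 on a dim one, and neither passed (limma adjusted p = 0.367 and, with every probe tested singly, 0.105). Psmd2, a scaffold of the cap, was dim and read 5.19 and 5.89 with ATRA+OMsup against 5.58 and 6.18 with OMsup (-0.34, limma adjusted p = 0.742). The 10 subunits had a median difference of 0.05 with ATRA+OMsup, 0.05 with ATRA and 0.14 with OMsup.

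**Figure D4:**
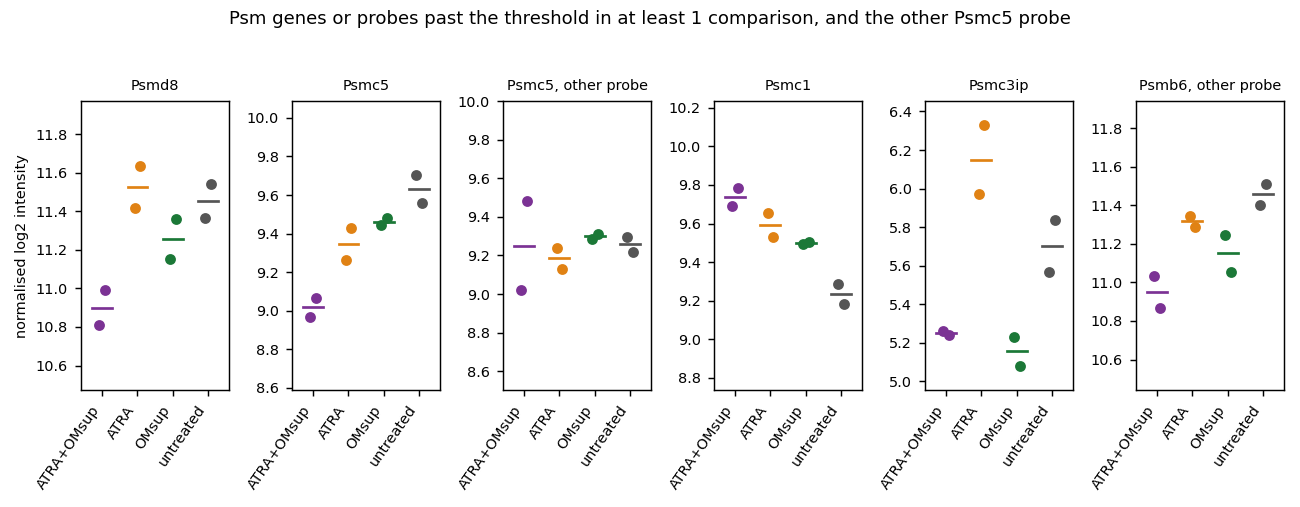
Normalised log2 intensity on each array for the 4 genes called in at least 1 comparison (Psmd8, Psmc5, Psmc1 and Psmc3ip) and for the other probes of Psmc5 and Psmb6; dots are arrays, lines are means of 2 arrays, and each panel spans 1.5 log2 units around its own centre. The other Psmc5 probe shows no drop with ATRA+OMsup (9.02 and 9.48 against 9.30 and 9.22 in untreated cells).

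Neither of the activators outside the inducible set passed. Psme3, the nuclear relative of Psme1 and Psme2, read 8.42 and 7.82 with ATRA+OMsup, 8.65 and 7.98 with ATRA, 8.57 and 7.78 with OMsup and 8.56 and 8.64 in untreated cells. In each treated group the 2 arrays lay far apart, with replicate 2 the lower, and the interval with ATRA+OMsup ran from -1.12 to 0.17. Psme4, the large single-chain activator, read 10.75 and 10.81 with ATRA+OMsup, 10.63 and 10.64 with ATRA, 10.69 and 10.69 with OMsup and 10.49 and 10.41 in untreated cells. All treated arrays lay above the untreated ones, by 0.33 with ATRA+OMsup (limma adjusted p = 0.0737), while a dim Psme4 probe, detected on 3 arrays, differed by -0.20.

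The assembly factors also passed in no comparison. Among the chaperones of the cap, Psmd9 read 5.68 and 5.85 with OMsup against 5.43 and 5.44 in untreated cells (0.33, limma adjusted p = 0.295), and Psmd10 read 9.64 and 9.68 with ATRA+OMsup against 9.97 and 9.75 in untreated cells (-0.20, limma adjusted p = 0.347). Among those of the core, Psmg2 read 7.66 and 7.84 with ATRA+OMsup against 8.04 and 8.15 with ATRA (-0.34, limma adjusted p = 0.238), and it differed from untreated cells by -0.26 (limma adjusted p = 0.324). Its other detected probes differed with ATRA+OMsup by -0.43 and -0.01 from ATRA, and by -0.29 and -0.08 from untreated cells. None of these passed with every probe tested singly. Psmg1 read 7.04 and 7.09 with OMsup against 7.35 and 7.28 in untreated cells (-0.25, limma adjusted p = 0.428), and Psmg3 stayed within a range of 0.15 over the 8 arrays. Of 8 further proteasome-associated genes outside the prefixes none was called in any comparison, where 0.242% to 15.1% of all features were called. The closest was Zfand2a, a stress-induced partner of the cap, which read 10.68 and 10.81 with ATRA+OMsup against 11.17 and 11.11 with ATRA (-0.40, limma adjusted p = 0.0517). Pomp, the maturation factor of the core, read 12.09 and 12.04 with ATRA+OMsup against 12.25 and 12.39 in untreated cells (-0.26, limma adjusted p = 0.173).

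The member with the widest range was no proteasome subunit. Psmc3ip, a meiotic recombination cofactor named for its binding to an ATPase subunit, read 5.26 and 5.24 with ATRA+OMsup, 5.97 and 6.33 with ATRA, 5.23 and 5.08 with OMsup and 5.57 and 5.84 in untreated cells. Its 4 arrays with supernatant lay below the 4 without. Against ATRA it fell with ATRA+OMsup by 0.90 ± 0.18 (SE, n = 2 each; limma adjusted p = 0.00883; interval -1.30 to -0.49), a call lost without ATRA replicate 2 (-0.72, limma adjusted p = 0.103). Against untreated cells the differences were -0.45 with ATRA+OMsup, 0.45 with ATRA and -0.55 with OMsup (limma adjusted p = 0.136, 0.296 and 0.101). Psme3ip1, whose product binds the Psme3 activator, differed by at most 0.13 from untreated cells and did not pass.

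The interferon-induced genes around the inducible set fell with OMsup. Of 19 tested, 13 fell and none rose with OMsup against untreated cells, where 9.36% of all features were called. Their median log2 difference was -0.99, or -0.91 with the 3 genes below background in a group set at their bounds. Ifit3, an antiviral protein of the IFIT family, fell by 3.06, reading 6.07 and 7.05 with OMsup against 9.87 and 9.36 in untreated cells (limma adjusted p = 6.82e-05). Gbp2, an interferon-induced GTPase, fell by 1.11, reading 8.83 and 8.78 with OMsup against 9.97 and 9.86 in untreated cells (limma adjusted p = 0.000595). The inducible proteasome genes, with a median of -0.38, read lower by less than the median of that list, and the difference between the lists was not tested. With ATRA 1 of the 19 fell (Cxcl10, a chemokine, by 0.93, limma adjusted p = 0.014), and with ATRA+OMsup 1 rose and 11 fell. In these comparisons 4.06% and 15.1% of all features were called. With ATRA+OMsup against OMsup 3 rose, among them Gbp2 by 1.02 (limma adjusted p = 0.00184), and 4.49% of all features were called. The inducible proteasome genes had differences of 0.03 to 0.22 in that comparison.

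Of 12 interferon signalling genes tested, 2 rose and 1 fell with ATRA+OMsup, 1 rose with ATRA and 1 fell with OMsup against untreated cells. In these comparisons 15.1%, 4.06% and 9.36% of all features were called. Irf7, the factor that amplifies type I interferon, fell by 1.36 with OMsup, reading 5.01 and 5.37 against 6.50 and 6.59 in untreated cells (limma adjusted p = 0.00103). With ATRA+OMsup it fell by 1.18 (limma adjusted p = 0.00151). Irf8, a lineage factor of macrophages, rose by 0.72 with ATRA+OMsup, reading 9.23 and 8.99 against 8.38 and 8.40 in untreated cells (limma adjusted p = 0.00691), and by 0.70 with ATRA (adjusted p = 0.0229). Irf1, a factor that acts on immunoproteasome genes, read 11.26 and 11.59 with OMsup against 11.28 and 11.19 in untreated cells (0.19, limma adjusted p = 0.619).

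The MHC class I genes that use proteasome products did not move as 1 group. Of 11 tested with ATRA+OMsup, 2 rose and 2 fell against untreated cells, where 15.1% of all features were called. Nlrc5, the transactivator of class I genes, rose by 1.35, reading 8.31 and 8.09 with ATRA+OMsup against 7.07 and 6.62 in untreated cells (limma adjusted p = 0.00118), and by 0.97 with OMsup (adjusted p = 0.0142). Pdia3, a chaperone of peptide loading, rose by 0.53 with ATRA+OMsup (limma adjusted p = 0.00902). H2-T23, a nonclassical class I gene, fell by 0.54 (limma adjusted p = 0.0355). H2-D1, a class I heavy chain, fell by 0.42, reading 13.82 and 13.71 with ATRA+OMsup against 14.10 and 14.27 in untreated cells (limma adjusted p = 0.0165). Nlrc5 was higher in both groups with supernatant. Of the 5 inducible proteasome genes, all 5 read lower on average than in untreated cells with OMsup, and 4 with ATRA+OMsup. None of these differences passed, and Psmb10 differed by 0.01 with ATRA+OMsup on its brightest probe.

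**Figure D5:**
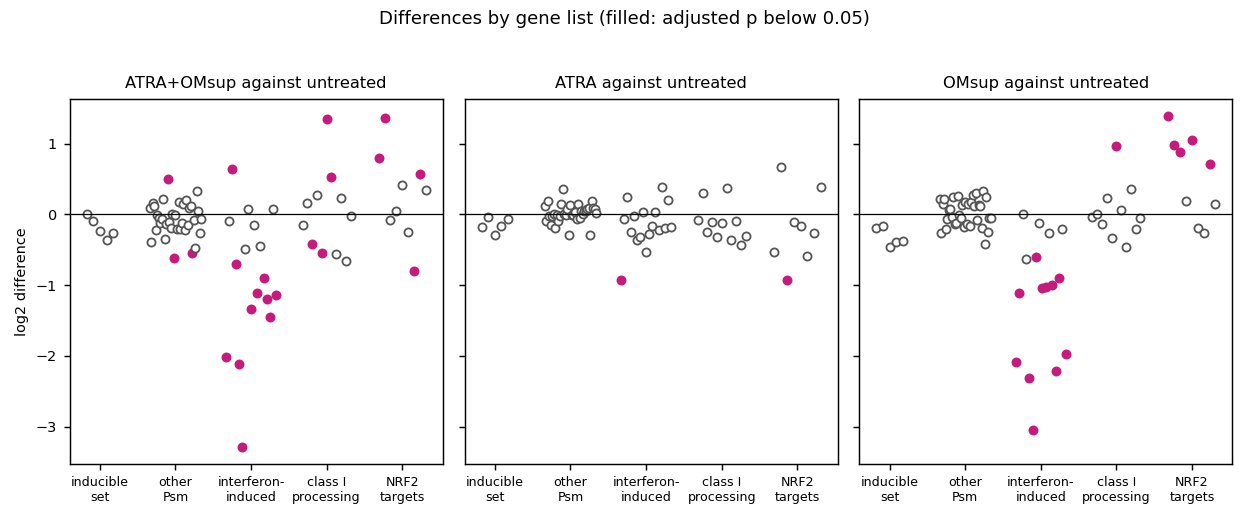
Log2 difference from untreated cells of each gene in the inducible set, the other subunits and regulators, and 3 further lists, with ATRA+OMsup, ATRA and OMsup; filled points have an adjusted p under 0.05, and list genes below background in one of the groups are left out. The interferon-induced genes reach -3.06 with OMsup, whereas the inducible proteasome genes end at -0.46.

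Factors known to raise proteasome genes as a block, and their other targets, were set beside the subunits. Nfe2l1, which encodes NRF1, read 9.81 and 9.47 with ATRA+OMsup against 9.69 and 9.71 in untreated cells (-0.06, limma adjusted p = 0.849). Nfe2l2, which encodes NRF2, fell by 0.83 with ATRA+OMsup, reading 7.17 and 7.42 against 8.10 and 8.14 in untreated cells (limma adjusted p = 0.00664). Its differences with ATRA (-0.40) and with OMsup (-0.54) did not pass (limma adjusted p = 0.306 and 0.0811). Of 9 NRF2 target genes tested, 3 rose and 1 fell with ATRA+OMsup, none rose and 2 fell with ATRA, and 5 rose and none fell with OMsup against untreated cells. In these comparisons 15.1%, 4.06% and 9.36% of all features were called. Gclm, of glutathione synthesis, rose by 1.40, reading 11.41 and 11.22 with OMsup against 9.75 and 10.09 in untreated cells (limma adjusted p = 0.000358), and Taldo1, of the pentose phosphate pathway, rose by 0.72 (limma adjusted p = 0.000825). With OMsup the 35 other proteasome subunits and regulators had a median of 0.06 with none called, and 18 of them read higher and 17 lower.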

How the data were processed

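Total RNA of 8 samples was measured on a one-colour Illumina bead array. The deposited table gave a linear intensity for each probe and array, with no background removed as judged by the array medians of 92.59 to 98.21, and, per the file headers, a detection p-value for each array. A deposited table of normalized intensity served as an alternative. No source used here names the software behind either table. Values were background-corrected and quantile-normalized with neqc (limma 3.58.1, R 4.3.3; negative controls taken through the detection p-values, offset 16) and put on the log2 scale. The brightest detected probe stood for a symbol, giving 10068 named genes and 2725 unnamed probes. Of all probes 34885 had 1 symbol, 18 several and 10378 none.

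Group means were fitted to the 8 arrays with lmFit and eBayes with a trend in limma, with 4 residual and 6.62 prior degrees of freedom. Within each of 6 comparisons Benjamini and Hochberg's adjustment was applied over all features, with a limit of 0.05. The number of arrays limits the precision: the SE of a member's log2 difference was 0.104 to 0.294, without the interaction. The fit was tested on simulated data.

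The members and gene lists were chosen with earlier results of these data known. Names were drawn from the inducible genes with Psmb5, Psmb6, Psmb7 and Psme3, every other member called, in each role and comparison up to 3 of the largest called or, where none was called, the 2 largest differences, and of other lists up to 4 of the largest called or 2 of the largest; not every gene this allows is described. Genes outside this rule that are named for their flat values, their probes or their neighbours (Psmb1, Psmb2, Psmb4, Psmd12, Tap1, Nfe2l1, Irf1, Pomp and Psmg3) were chosen after their values were seen. Promoter windows are RefSeq's (GRCm38.p6). Protein sequences were not used here. Alternatives were other background and scaling steps, the deposited normalized values, other probe filters, every probe singly, a replicate block, eBayes without trend, and leaving out each array. Use of another detected probe was added after seeing the data.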

Additional observations from a re-analysis of the deposited data

How the results depend on the processing

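With the replicate number as a block, the counts of proteasome genes called were 7 with ATRA+OMsup against untreated cells in place of 3 (Psma4, Psmb6, Psmc1, Psmc5, Psmd8, Psme1 and Psme4), 2 with OMsup against untreated cells in place of 0 (Psmb9 and Psme1) and 1 with ATRA+OMsup against OMsup in place of 0 (Psmd8), while the share of all features called rose as well, to 21.2%, 13.9% and 7.03%. The numbers did not pair the samples by the rule used: same-numbered arrays had deviations that correlated at -0.010 to 0.532 over the 6 pairs of groups. Pairs among the treated groups had 0.433 to 0.532, and pairs with untreated cells had -0.010 to 0.209. Leaving out each array in turn gave 1 to 3 calls with ATRA+OMsup against untreated cells (1 without untreated replicate 1, Psmd8, and 1 without untreated replicate 2, Psmc5), 0 to 2 with ATRA+OMsup against ATRA (0 without ATRA replicate 2, 1 without ATRA+OMsup replicate 1, Psmc3ip), and 0 throughout in the other 4 comparisons; where a group was left with 1 array, that array was assumed to vary like the other groups. The other alternatives kept each count within 1.5 times. Signs turned only in differences that had not passed. Leaving out each array in turn gave -0.15 to 0.065 for Psmb8 with ATRA (0.065 without ATRA replicate 1), -0.53 to 0.14 for Psmb10 with OMsup (0.14 without OMsup replicate 1), -0.20 to 0.022 for Psmb8 and -0.49 to 0.0084 for Psmb9 with ATRA+OMsup (the upper values without ATRA+OMsup replicate 2), and -0.26 to 0.29 for Psmb10 with ATRA+OMsup (-0.26 without ATRA+OMsup replicate 2 and -0.022 without untreated replicate 1). Psme2 with ATRA was 0.041 with a common median, and Psmb10 with ATRA+OMsup was -0.40 on its other probe. Of 347 recomputed values of 21 single-gene results, 323 kept direction and side of the limit. Scaling to a common median put the median of all features at -0.13 in ATRA+OMsup against ATRA, in place of -0.01. Psmd8 and Psmc3ip were still called there against 0, and a test against the shifted median was not run. Genes near background, such as Psma8 and Psmd6, and Psme3 with its uneven treated arrays, are the least precise.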

Other observations

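The ubiquitin shuttle, p97 and E1 enzyme genes tested also passed in no comparison. Of 8 ubiquitin shuttle and p97 genes and 2 E1 enzyme genes tested, none was called in any of the 6 comparisons. Only 2 of the 7 ubiquitin and E1 genes listed had a probe under their symbol, so most of that list was not measured here. Between 0.242% and 15.1% of all features were called in each. Vcp, the segregase that extracts ubiquitin-tagged proteins, read 11.67 and 11.90 with OMsup against 11.51 and 11.61 in untreated cells (0.23, limma adjusted p = 0.36), and Uba6, an E1 enzyme, read 6.69 and 5.87 with ATRA+OMsup against 6.15 and 5.71 in untreated cells (0.35, limma adjusted p = 0.453). Of 7 cytosolic heat shock genes, none rose and 2 fell with ATRA+OMsup against untreated cells, where 15.1% of all features were called. Bag3, a cochaperone of selective autophagy, fell by 0.68, reading 10.59 and 10.28 with ATRA+OMsup against 11.04 and 11.20 in untreated cells (limma adjusted p = 0.0088).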
